A study of Mus musculus with 6 samples.

Results

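The Hox genes of the mouse were followed through the H3K27ac peaks of pigment-sorted B16 cells, to see which of them carry the mark in low and in high pigment cells. The members were the protein-coding genes of the GENCODE annotation of mm10 named Hox, a letter from a to d and a number, and 38 of them, among 21951 protein-coding genes, are described. They lie in 4 clusters, and every peak between the first and last of these genes in a cluster, or within 20 kb of either end, was taken with them, except that HoxA was taken from Hoxa2 onwards with a flank beyond Hoxa13 only. Merging the peak lists wherever peaks shared at least 1 bp gave 93 regions in these clusters, of 182956 in the genome. HoxA (10 genes) spans chr6:52162417-52260880, HoxB (10 genes) chr11:96194316-96368256, HoxC (9 genes) chr15:102921103-103036852 and HoxD (9 genes) chr2:74668310-74765142.

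B16 F10 is a mouse melanoma line that gains pigment when plated sparsely, here at 100 cells per cm2. On day 5 the cells of a culture were separated by side scatter, a light-scattering measure that rises with pigment, into a low pigment (LP) and a high pigment (HP) population, and fixed with formaldehyde for 10 minutes. H3K27ac was immunoprecipitated from 2 replicates of LP and 2 of HP, and IgG from 2 replicates of unsorted cells, which entered as the controls of the peak calls. All 6 samples share the line and the day, and LP and HP are gates on 1 melanoma line and not separate strains or normal melanocytes, although the labels name the cell type as melanocytes.

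Hox genes encode homeodomain transcription factors whose order along each cluster follows the order in which they are used from head to tail of the embryo, low numbers in front and high numbers behind. Genes of the same number in different clusters are paralogues, descended from a common ancestor. Polycomb proteins keep unused Hox genes silent under H3K27me3, and acetylation of the same lysine, H3K27ac, marks active promoters and enhancers. Cells of adult tissues often keep the set of active Hox genes of the body position from which they came.

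The 4 libraries held between 11467942 and 15353176 fragments and between 57942 and 71529 peaks. LP replicate 1 had the shortest peaks, with a median of 225 bp against 296 to 333 bp in the other libraries. The Hox clusters held 28 and 66 peaks in LP replicates 1 and 2, against 46 and 49 in HP, so the LP replicates stood further apart than the HP replicates. Of the 10 melanocyte markers, 7 had a promoter peak in all 4 libraries and the other 3 in some, and none of the 5 keratinocyte, 5 fibroblast and 5 leukocyte markers had one in all 4. Col1a1, a fibroblast collagen gene, was the only marker of those 3 lists with a promoter peak in any library (HP replicate 2).

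A peak within 1 kb of the gene start was called in all 4 libraries at 12 of the 38 Hox genes (31.6%), against 41.7% of all protein-coding genes. The 12 genes were Hoxa3, Hoxa7, Hoxa10 and Hoxa11 in HoxA, Hoxb6, Hoxb7, Hoxb9 and Hoxb13 in HoxB, Hoxc6 in HoxC, and Hoxd3, Hoxd4 and Hoxd13 in HoxD. Hoxd3 and Hoxd4 have annotated starts 2 bp apart and so share their peaks. No promoter peak was called in any library at 18 Hox genes, against 41.1% of all genes, and the remaining 8 had a peak in 1 or 2 libraries. No Hox promoter was called in both HP libraries and neither LP library, against 1.55% of all genes, and none in both LP libraries and neither HP library, against 0.0957%. By library, LP replicates 1 and 2 had 12 and 19 marked Hox promoters and HP replicates 1 and 2 had 13 and 16. Counting the start of any annotated transcript added Hoxb3, for 13 genes in all 4 libraries (background 45.3%), with 18 in none (35.5%), 0 in both HP and neither LP library (1.34%) and 0 in both LP and neither HP library (0.26%). In LP replicate 1 the Hoxb3 call rests on a peak over the start of the antisense RNA Gm11536 (chr11:96341938-96342144). That peak reaches only the edge of the 1 kb window of the Hoxb3 transcript.

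**Figure D1:**
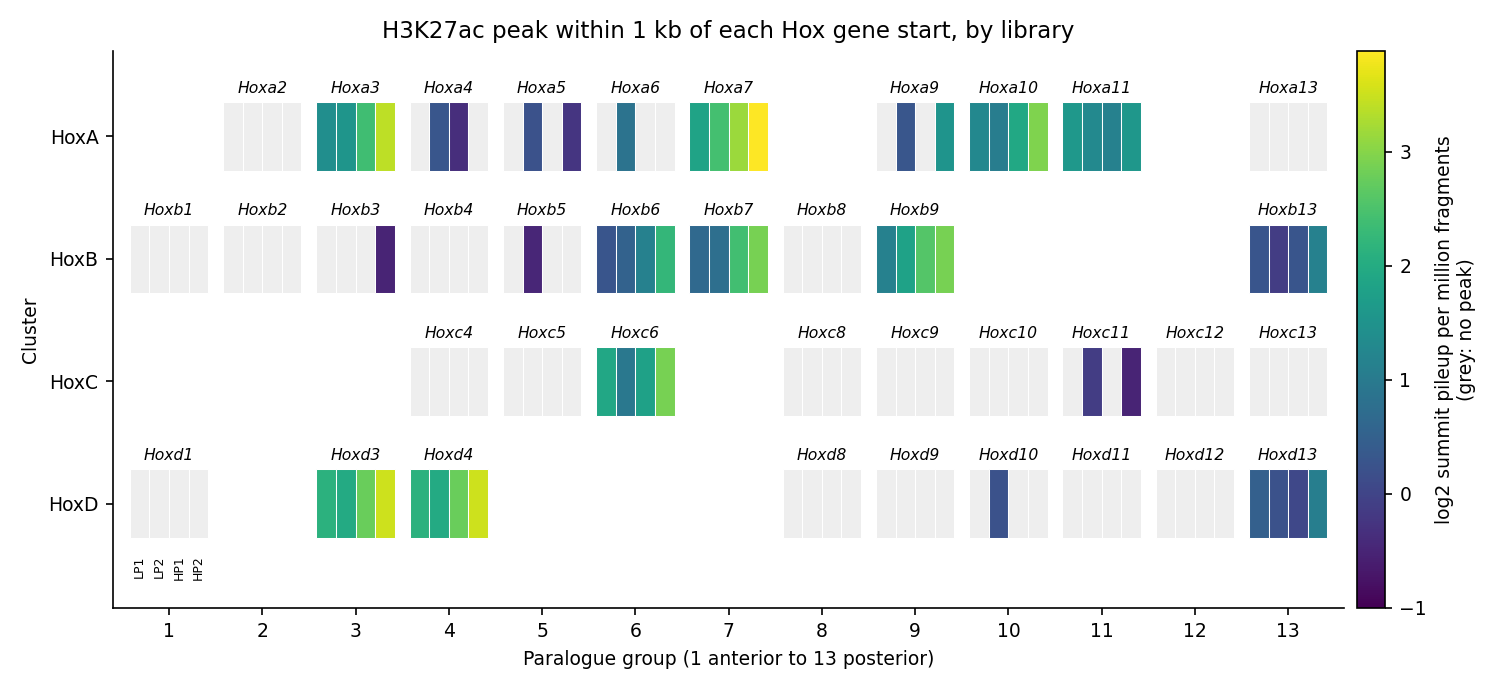
Highest summit pileup of a peak within 1 kb of each Hox gene start, as log2 of fragments per 1000000 (colour), with clusters in rows and paralogue groups in columns; each gene has 4 cells, for LP replicates 1 and 2 and HP replicates 1 and 2 from left to right, and grey marks a library with no peak. The 12 genes coloured in all 4 cells are spread over all 4 clusters, and in HoxC only Hoxc6 is among them.

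Genes called in all 4 libraries belonged to anterior, central and posterior paralogue groups. The anterior ones, Hoxa3 and Hoxd3, were called at starts that lie among central genes. That of Hoxa3 is between the starts of Hoxa6 and Hoxa7, and that of Hoxd3 is shared with Hoxd4. Among the anterior genes (paralogue groups 1 to 3) 2 of 7 had a promoter peak in all 4 libraries, among the central genes (4 to 8) 5 of 15, and among the posterior genes (9 to 13) 5 of 16. Both members of group 7, Hoxa7 and Hoxb7, were called in all 4 libraries, as were 2 of 3 members of groups 3 and 6. None of groups 2, 5, 8 and 12 was called in all 4. In group 13 the paralogues were split, with Hoxb13 and Hoxd13 called in all 4 libraries and Hoxa13 and Hoxc13 in none.

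Sequence at 5 of these places is shown to set acetylated places beside unmarked promoters, with each CpG, the dinucleotide that is dense at many active promoters, in capitals. The sequences were read from the RefSeq copy of the mm10 build (GRCm38) and leave out annotated untranslated regions. The first line is 300 bp around the strongest summit at Hoxc6 (chr15:102999445-102999744, plus strand), the place with the highest pileup in HoxC. The next lines lie directly before the start of Hoxd3 (chr2:74711677-74711926, plus strand) and shortly before that of Hoxd13 (chr2:74668060-74668224, plus strand), both called in all 4 libraries. The last lines are the 250 bp before the starts of Hoxa13 (chr6:52260881-52261130, minus strand) and Hoxd1 (chr2:74762730-74762979, plus strand), where no library had a peak.
Hoxc6 summit: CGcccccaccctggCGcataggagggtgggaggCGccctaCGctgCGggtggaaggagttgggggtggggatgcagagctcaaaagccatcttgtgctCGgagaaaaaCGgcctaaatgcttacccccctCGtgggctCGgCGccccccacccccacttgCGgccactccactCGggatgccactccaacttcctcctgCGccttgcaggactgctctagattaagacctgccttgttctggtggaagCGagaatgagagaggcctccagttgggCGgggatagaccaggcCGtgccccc
Hoxd3 promoter: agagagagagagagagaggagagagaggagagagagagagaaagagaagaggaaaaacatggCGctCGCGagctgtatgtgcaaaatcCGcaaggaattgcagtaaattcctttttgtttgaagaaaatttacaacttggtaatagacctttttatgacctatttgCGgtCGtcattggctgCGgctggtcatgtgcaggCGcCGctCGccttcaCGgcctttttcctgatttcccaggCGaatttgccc
Hoxd13 promoter: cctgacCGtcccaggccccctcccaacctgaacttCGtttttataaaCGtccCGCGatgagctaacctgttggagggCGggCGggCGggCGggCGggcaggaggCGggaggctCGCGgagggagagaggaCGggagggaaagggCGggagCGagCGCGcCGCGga
Hoxa13 promoter: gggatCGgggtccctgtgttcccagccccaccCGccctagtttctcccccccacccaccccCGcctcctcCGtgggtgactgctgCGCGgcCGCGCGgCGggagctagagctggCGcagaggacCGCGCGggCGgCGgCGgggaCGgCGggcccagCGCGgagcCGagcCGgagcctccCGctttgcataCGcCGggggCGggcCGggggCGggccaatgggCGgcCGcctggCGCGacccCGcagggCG
Hoxd1 promoter: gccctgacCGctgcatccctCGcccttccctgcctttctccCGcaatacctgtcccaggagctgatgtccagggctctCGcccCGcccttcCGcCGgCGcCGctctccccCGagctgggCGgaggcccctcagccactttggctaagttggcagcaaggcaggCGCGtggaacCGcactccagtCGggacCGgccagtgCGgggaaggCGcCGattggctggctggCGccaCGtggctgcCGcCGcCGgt
CpG were frequent in the stretches shown, acetylated or unmarked, which were picked as examples. In the stretches read before other unmarked Hox starts, the count ran from 2 (Hoxd11) to 18 (Hoxc10). Hoxa13 held 35 CpG at 80% G and C, and Hoxd1 held 24 at 71.6%. The stretch at Hoxd3 held 12 CpG at 47.6%, and the shorter one at Hoxd13, of 165 bp, held 20 at 70.3%.

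HoxA carried the highest pileups of the 4 clusters. Pileup is the number of sequenced fragments over the summit of a peak, given here per 1000000 fragments of its library. Hoxa3, needed for the pharyngeal organs and neck, was marked at its most upstream annotated start, deep in the cluster (chr6:52211079-52214000), where the antisense RNA Hoxaas3 also has an exon. LP replicates 1 and 2 held 2.62 and 2.93 there, against 5.22 and 10.6 in HP replicates 1 and 2, the order used below, with no overlap. A second region (chr6:52175086-52176299) lay in an intron of Hoxa3 at the start of Hoxaas3, where LP held 4.80 and 5.21 and HP 9.75 and 7.79. Hoxa7, a central gene of the thoracic axis, was marked over an untranslated exon near its start (chr6:52220987-52222447), at 3.58 and 5.41 (LP) and 8.88 and 14.8 (HP). Hoxa10, which specifies lumbar vertebrae and the uterus, was covered at 2.44 and 2.08 (LP) and 3.83 and 7.72 (HP), over chr6:52239604-52241132. At all 4 regions both HP libraries lay above both LP libraries, as they did at 74.8% of all regions called in all 4 libraries. Their log2 ratios were 1.43, 0.80, 1.38 and 1.27 in the order given, with limma adjusted p-values of 0.0774, 0.224, 0.0825 and 0.0996. The SE was 0.54 at each, a value that the fit shared over regions and not the spread of a single region.

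Hoxa11, required for the forearm bones and the uterus, differed from these. Its promoter was called in all 4 libraries, but by 2 separate regions, 1 inside the gene near its start in replicate 1 of LP and HP (chr6:52245011-52245465) and 1 upstream of the start in the other libraries and HP replicate 1 (chr6:52245971-52246906). Within 1 kb of its start LP held at most 3.05 and 2.48 and HP 2.18 and 3.02, so the populations overlapped, and it was the only one of the 12 genes whose mean log2 pileup was lower in HP, by a log2 ratio of -0.10 that was not tested. At their starts the other HoxA genes were weakly marked or unmarked. Hoxa4, Hoxa5 and Hoxa9 had a promoter peak in 2 libraries each and Hoxa6 in LP replicate 2 alone, with pileups of at most 2.88. Hoxa2 had no promoter peak in any library, and Hoxa13 had no peak over its body.

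In HoxB the starts of Hoxb9, Hoxb7, Hoxb6 and Hoxb13 were marked in all 4 libraries. Hoxb9, which acts with its paralogues on the ribs, was marked over a coding exon near its start (chr11:96269377-96272954), at 2.18 and 3.52 (LP) and 6.01 and 7.37 (HP). A region from the 3′ end of Hoxb8 to the start of Hoxb7 (chr11:96283850-96287197) held 3.14 and 3.97 in LP, against 5.31 and 7.37 in HP. Hoxb6 (chr11:96291579-96295239) held 1.22 and 1.43 in LP, against 2.18 and 4.70 in HP, with its strongest summit in an intron. At these 3 regions the populations did not overlap, as at 74.8% of all regions called in all 4 libraries. Their log2 ratios were 1.26, 0.82 and 1.27 with limma adjusted p-values of 0.100, 0.215 and 0.0986. In HP replicate 2 a single peak ran from the end of Hoxb8 over the Hoxb7 start, while the other libraries had 2 or 3 separate peaks in that region. Hoxb8 itself, although covered in all 4 libraries at its 3′ end, had no peak at its start in any library.

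Hoxb13, the posterior gene expressed in the tail and prostate, stands apart from the rest of HoxB by a long gene-poor stretch and had a weak peak in all 4 libraries (chr11:96193496-96194978). LP held 1.22 and 0.912 there and HP 1.22 and 2.17, from 14, 14, 14 and 31 fragments in the same order. HP replicate 1 lay at the level of LP replicate 1, and HP replicate 2 above all others. The LP peaks there (chr11:96193873-96194082 and chr11:96194251-96194681) did not meet, and the HP peaks joined them into 1 region. Between Hoxb13 and Hoxb9 lay 2 more regions called in all 4 libraries, over the noncoding RNA Gm53. That at the Gm53 start (chr11:96250694-96251994) held 1.13 and 1.24 in LP, against 0.871 and 1.75 in HP, and overlapped. That inside Gm53 (chr11:96258625-96261129) held 1.13 and 0.912 in LP, against 1.65 and 4.21 in HP, and did not. Its LP peaks (chr11:96260005-96260178 and chr11:96258925-96259145) lay at separate places, joined into 1 region by the HP peaks. The last HoxB region (chr11:96340533-96342364) held 2 separate starts, an internal start of Hoxb3 and that of the antisense RNA Gm11536. Its highest pileups were 1.83 and 1.63 (LP) and 2.00 and 3.93 (HP), without overlap, from summits up to 1170 bp apart. Near the Gm11536 start LP held 1.83 and 1.43 and HP replicate 1 held 1.22, so the populations overlapped there. HP replicate 2 had 1 peak over both starts. Hoxb1, Hoxb2 and Hoxb4 had no peak over the gene or within 1 kb of it in any library, and Hoxb5 had a weak promoter peak in LP replicate 2 alone.

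HoxC held the fewest peaks of the 4 clusters in every library. A single region was called in all 4 libraries (chr15:102998365-103000209), over an intron of Hoxc6, a gene of the thoracic axis and mammary gland. LP held 3.75 and 1.95 there, against 3.48 and 7.37 in HP. HP replicate 1 lay below LP replicate 1, and the log2 ratio was 0.90 ± 0.54 (SE, limma, adjusted p = 0.185). In HP replicate 1 it was the only peak of the whole cluster. Hoxc8, Hoxc9, Hoxc10, Hoxc12 and Hoxc13 had no peak in any library, Hoxc4 had a peak in its body in LP replicate 1 only, and Hoxc11 had weak promoter peaks in replicate 2 of both populations. The long annotated Hoxc5 transcript spans Hoxc6, so its body was covered in all 4 libraries without a peak at its start. Hotair, a noncoding RNA of HoxC, had a promoter peak in LP replicate 2 alone.

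HoxD was marked most at the shared start of Hoxd3 and Hoxd4, which act in the neck vertebrae. The region (chr2:74711019-74712738) had its strongest summit in exons of both genes, and LP held 4.36 and 3.91 there, against 6.79 and 11.5 in HP, without overlap (log2 ratio 1.10 ± 0.54, SE, limma adjusted p = 0.130). Its summits lay within 13 bp of each other in the 4 libraries. Hoxd13, the digit and genital gene at the other end of the cluster, held 1.40 and 1.17 in LP, against 1.04 and 2.10 in HP (chr2:74667711-74668970), from 12 to 30 fragments, and overlapped. The genes between them were bare or nearly so. Hoxd8, Hoxd11 and Hoxd12 had no peak over the gene, and Hoxd10 had a promoter peak in LP replicate 2 alone. Hoxd9 had no promoter peak, and only a peak beyond its 3′ end, within 1 kb, in HP replicate 2. Hoxd1, at the anterior end, was unmarked too.

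**Figure D2:**
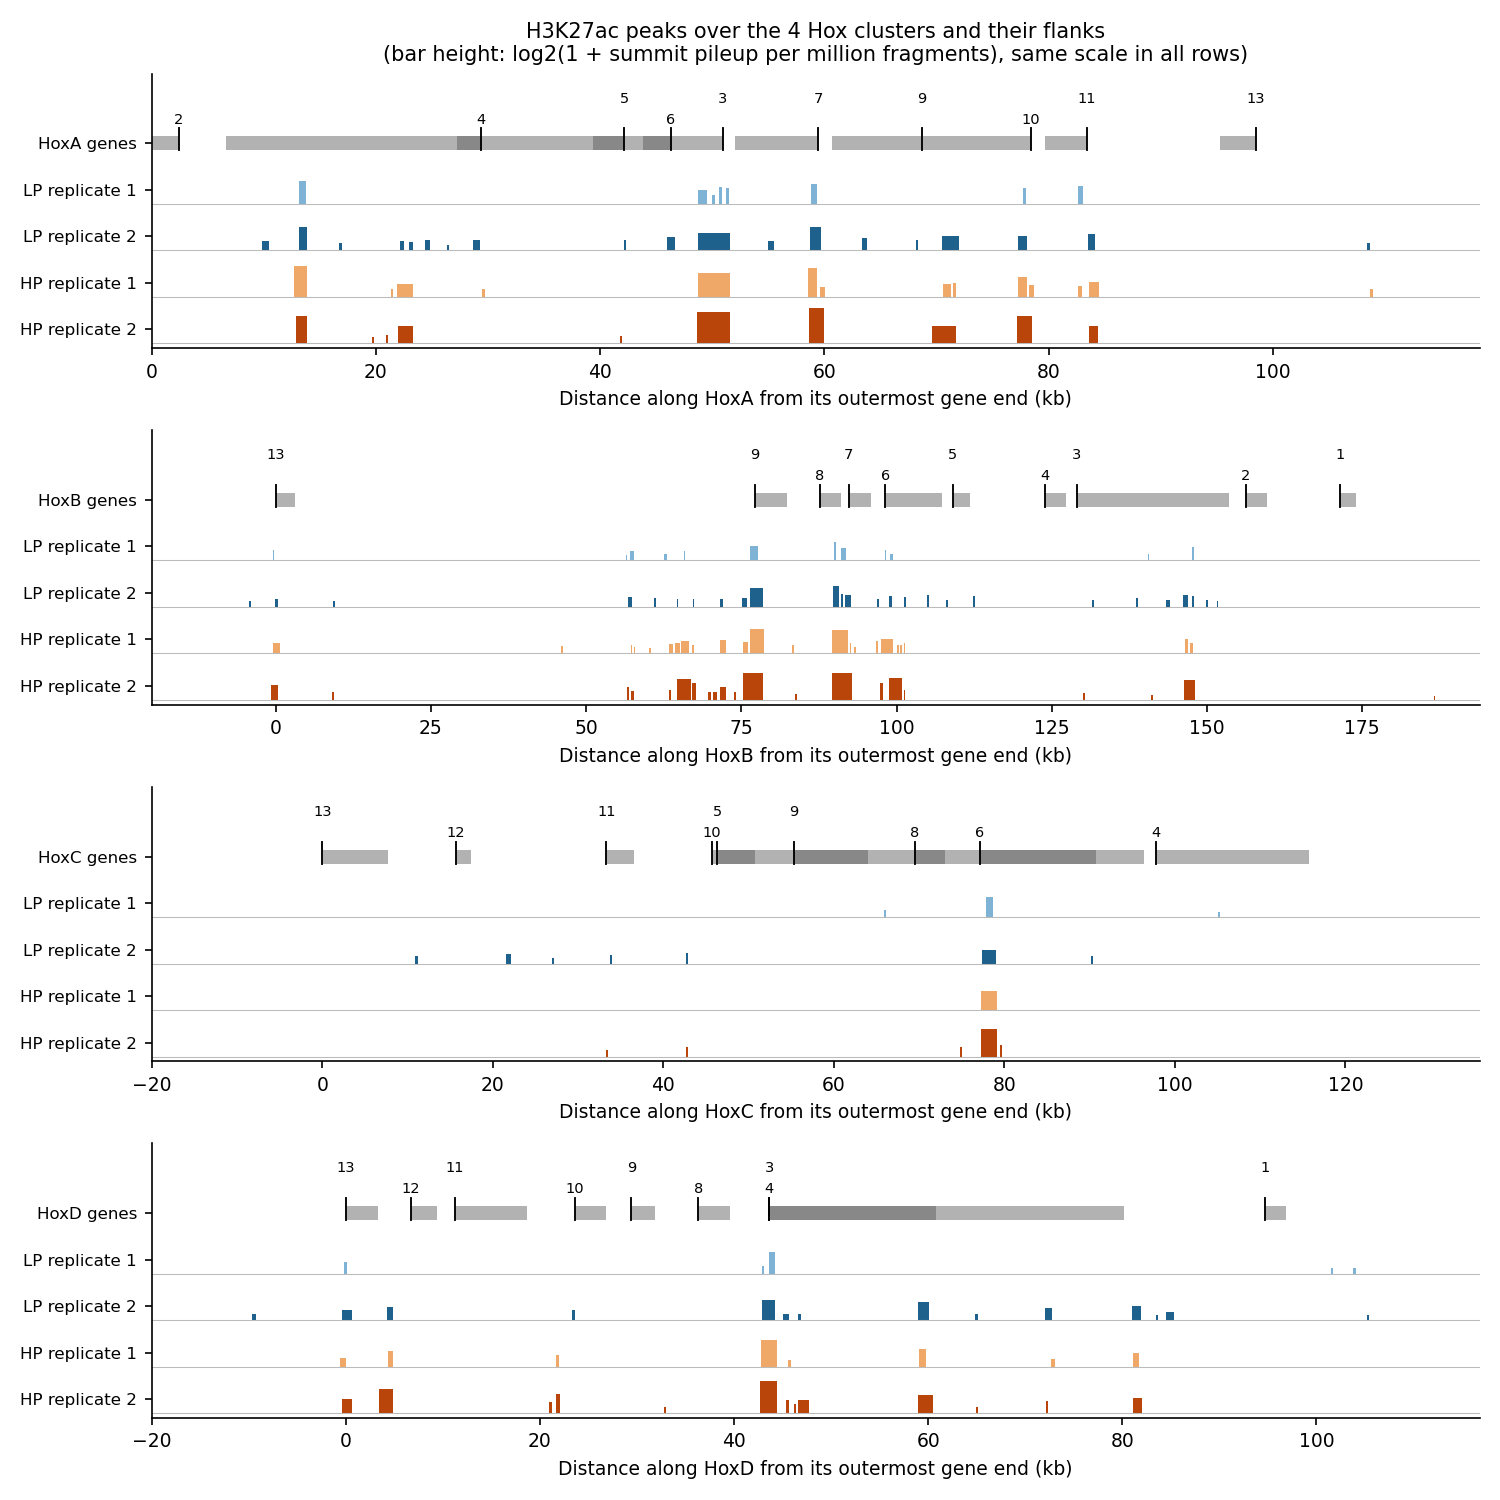
H3K27ac peaks along the 4 clusters and their flanks, in kb from the outermost gene end (x axis), with 1 row per library and bar height as log2(1 + summit pileup per 1000000 fragments). Grey boxes are the Hox genes, and ticks with numbers are the gene starts by paralogue group. The same few places are marked in all 4 rows, HoxC holds 1 shared place, and the bars of LP replicate 1 cover the least of each cluster. Darker grey marks overlapping genes.

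Other annotated genes of the clusters were examined in the same way. Of 32 further annotated genes in the clusters and their flanks, leaving out those typed only as miscellaneous RNA, 4 had a peak within 1 kb of their start in all 4 libraries, and 15 had none in any library. The background of 41.7% and 41.1% is for protein-coding genes, to which only 4 of the 32 belong, so the counts were not read against it. The marked ones were Hoxaas3, Gm28308, which shares the upstream Hoxa3 start, Gm53 and Gm11536. Evx2, the homeobox gene next to Hoxd13, had a promoter peak in LP replicate 2 alone.

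The clusters also hold microRNA genes, and those of the miR-10 and miR-196 seed families are shown because each family spans several clusters. Mature sequences are from RefSeq, with the seed (bases 2 to 8) in capitals.
miR-10a-5p: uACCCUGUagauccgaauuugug
miR-10b-5p: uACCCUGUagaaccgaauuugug
miR-196a-5p: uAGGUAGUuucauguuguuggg
miR-196b-5p: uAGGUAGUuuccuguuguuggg
The microRNA genes were mostly away from peaks. Mir10b, within the annotated spans of Hoxd3 and Hoxd4 (chr2:74726070-74726137), lay 1129 bp from the nearest peak in LP replicate 2, 1214 bp in HP replicate 1 and 1125 bp in HP replicate 2, but 13584 bp in LP replicate 1. Mir10a, next to Hoxb4 (chr11:96317165-96317274), lay at least 7032 bp from a peak in every library. Mir196a-1, upstream of Hoxb9 (chr11:96265164-96265265), was inside a peak in HP replicate 2 and 603 to 4986 bp away in the other libraries. Mir196b, near Hoxa9 (chr6:52230081-52230165), had a peak within 1 kb in LP replicate 2 alone, at 417 bp. In HoxC, Mir196a-2 (chr15:102973350-102973434), which gives the same mature miR-196a-5p, lay at least 9333 bp from a peak in every library. Mir615, of another seed, was also away from peaks, with the miR-615-5p sequence (chr15:103014926-103014947) at least 3408 bp from one.

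In HoxA, HoxC and HoxD the share under peaks differed more between the LP replicates than between the means of the populations. In HoxA peaks covered 3.02% and 10.7% (LP) and 9.22% and 9.82% (HP). In HoxB they covered 2.45% and 6.23% (LP), against 7.76% and 9.59% (HP). HoxD stood at 1.17% and 6.45% (LP) and 3.77% and 7.24% (HP). HoxC, at 0.814% and 2.26% (LP) and 1.17% and 1.76% (HP), was closest to the chromosomes as a whole, at 0.692% and 1.11% (LP) and 1.17% and 1.61% (HP). HoxB was the cluster in which both HP libraries lay above both LP libraries. LP replicate 1 was the lowest library in every cluster, as it was over all chromosomes.

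The log2 ratio of HP to LP in covered bp was 0.74 for HoxA, 1.14 for HoxB, 0.08 for HoxC and 0.93 for HoxD, against 0.65 for all chromosomes. Within replicate 1 these ratios were 1.61, 1.66, 0.52 and 1.68, and within replicate 2 they were -0.13, 0.62, -0.36 and 0.17, against 0.76 and 0.54 for all chromosomes. The log2 ratio between the LP replicates was 1.83, 1.35, 1.47 and 2.46, which is as large as or larger than the HP to LP ratio of the same cluster. Without LP replicate 1 the ratio was -0.17 for HoxA, 0.47 for HoxB, -0.66 for HoxC and -0.30 for HoxD, and without LP replicate 2 it was 1.66, 1.82, 0.82 and 2.16. With 2 libraries against 2 an exact two-sided permutation test cannot go below p = 0.333, so no test was made of single clusters.

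**Figure D3:**
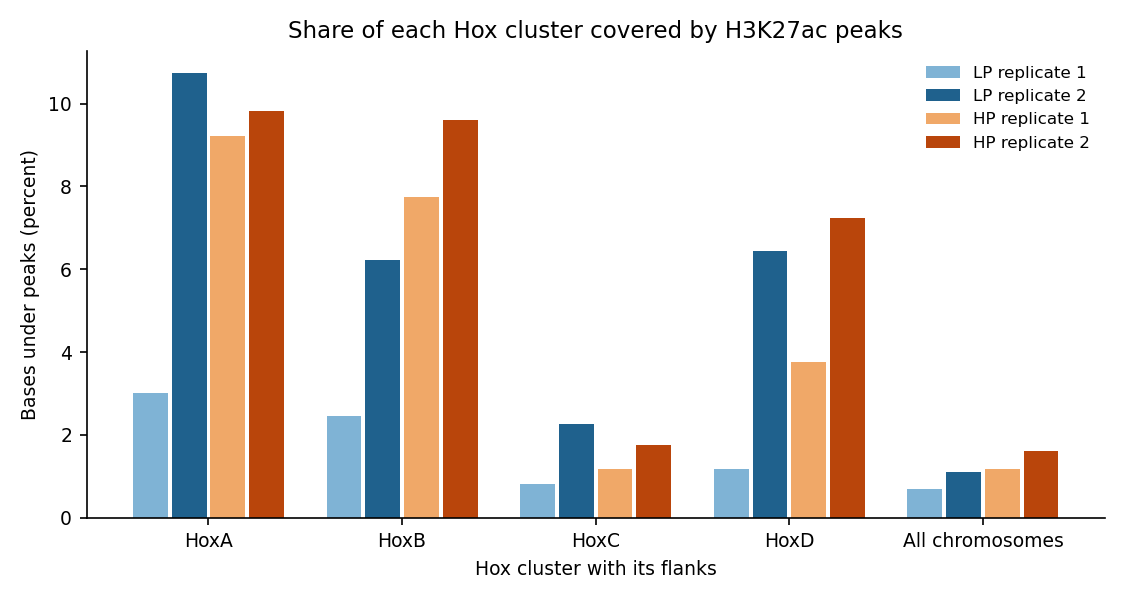
Share of bases under H3K27ac peaks (percent, y axis) in each Hox cluster with its flanks and over all chromosomes, with 1 bar per library. LP replicate 1 is the lowest bar in every cluster, LP replicate 2 reaches 10.7% in HoxA, above the HP libraries, and HoxB is the only cluster in which both HP bars exceed both LP bars.

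The pileups were then compared between HP and LP over the regions called in all 4 libraries, 14 in the Hox clusters and 12084 in the genome. The fit was made by limma on log2 pileup per 1000000 fragments over all 12084 regions, with Benjamini-Hochberg adjustment, and the replicates were taken as labelled, without a statement that they came from separate cultures, so the p-values measure the spread between these libraries. The fit gave every Hox region the same SE, 0.54, so the p-values there follow the size of the ratio alone. None of the 14 Hox regions passed an adjusted p of 0.05, against 4.01% of all regions higher in HP and none lower. At an unadjusted p under 0.05, 7 Hox regions were higher and 0 lower, against 36.2% of all regions higher. The fold was above 1 at 14 of 14 regions, a count for which no share over all regions was taken. Of the 14, 10 did not overlap between populations, against 74.8% of all regions. The median log2 ratio of the 14 was 1.00, from 0.06 at the Gm53 start to 1.43 at Hoxa3, and the median of all regions was 0.92. The lowest adjusted p among the Hox regions was 0.0774, at Hoxa3. In such bulk samples, a change in the number of acetylated cells and in the acetylation of each cell cannot be told apart. The median pileup of all peaks also differed by library, at 0.610 and 0.716 (LP) and 0.871 and 0.842 (HP), and its part in the ratios was not tested.

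The Hox regions thus sat near the middle of the genome-wide distribution, and where each library was centred on its own median the median Hox ratio was -0.0098, against -0.087 for all regions, with 7 of 14 above the median of all regions, as were 50% of all regions by construction. With replicate as a block, none of the 14 was called either, with a lowest adjusted p of 0.0919, while the calls among all regions went from 485 to 88. HP replicate 1 bore on the count, since without it 9 of the 14 Hox regions were called higher, with 6930 of all 12084 regions. HP was then 1 library, taken to vary like the LP pair, so these calls have no replicate check in HP. Those 9 were the regions at Hoxa3, Hoxa7, Hoxa10, Hoxb9, Hoxb6, Hoxb3, Hoxc6 and Hoxd3 with Hoxd4, and the region inside Gm53.

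Within replicates the ratio was unequal. In replicate 1, HP was higher at 10 of 14 Hox regions, against 82.2% of all regions. The median log2 ratio of the 14 was 0.64, against 0.57 for all regions. In replicate 2, HP was higher at 14 of 14, against 98.6% of all regions, with a median of 1.36, against 1.30. The 4 regions below 0 in replicate 1 were those at Hoxb13, the Gm53 start, Hoxc6 and Hoxd13. At Hoxc6 the ratio was -0.11 in replicate 1 and 1.91 in replicate 2. The region at Hoxb8 and Hoxb7 was the most even, with 0.76 and 0.89, followed by Hoxa7, with 1.31 and 1.45.

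**Figure D4:**
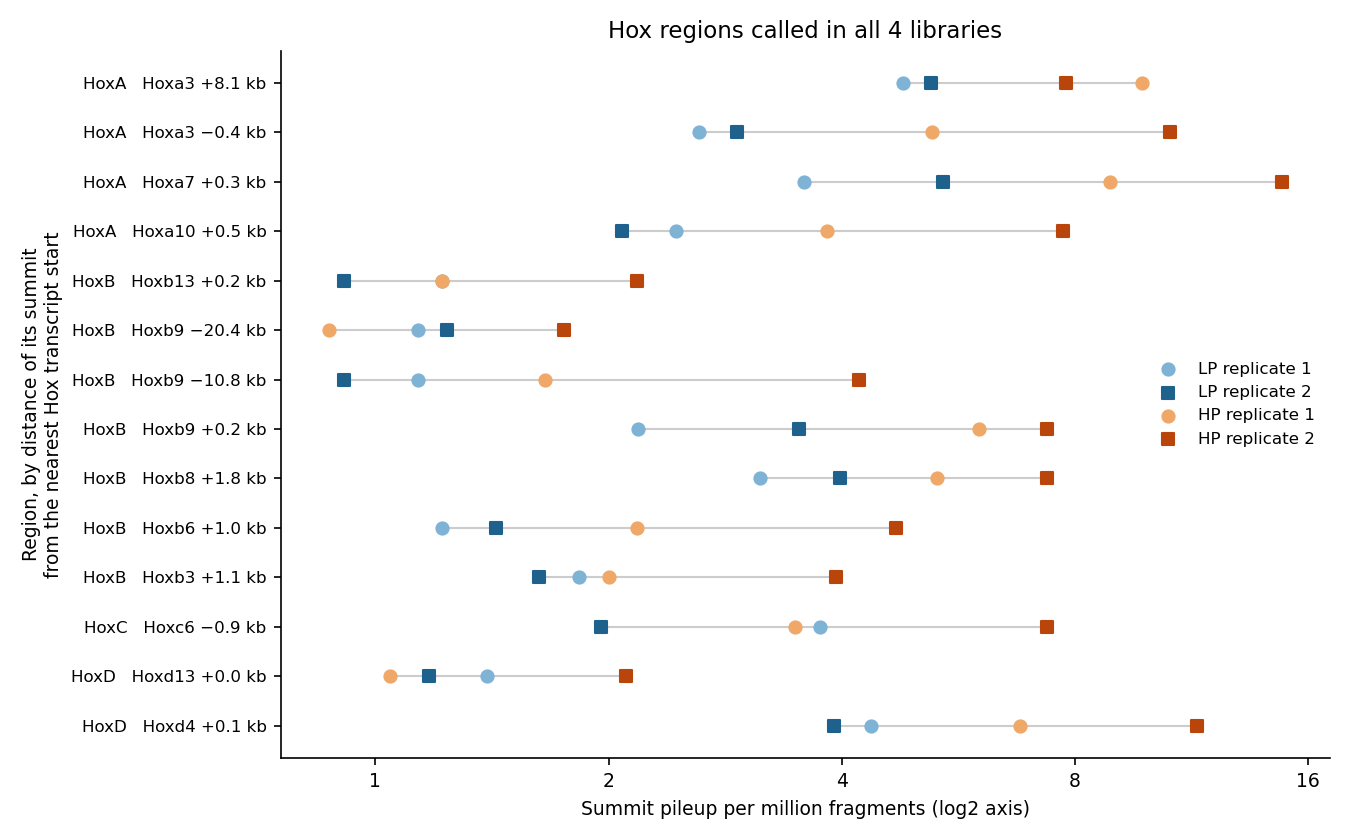
Summit pileup per 1000000 fragments (x axis, log2 scale) at the 14 Hox regions called in all 4 libraries, in order along each cluster and named by the distance of the strongest summit from the nearest Hox transcript start; circles are replicate 1 and squares replicate 2, blue LP and orange HP. HP replicate 2 is the highest point in 13 of 14 rows, and at Hoxb13 the point of LP replicate 1 is hidden under that of HP replicate 1.

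**Figure D5:**
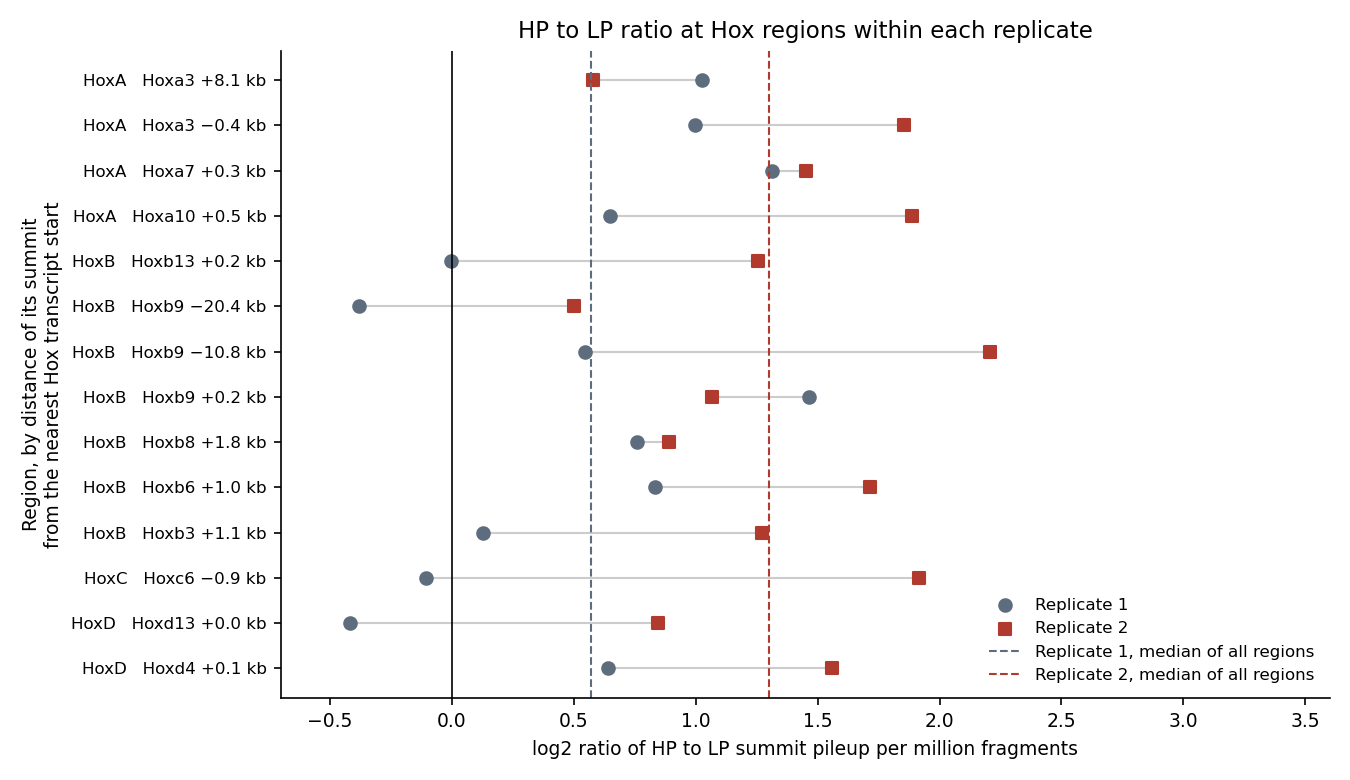
Log2 ratio of HP to LP summit pileup (x axis) at the same 14 regions within replicate 1 (circles) and replicate 2 (squares), with dashed lines at the medians of all 12084 regions, 0.57 and 1.30. The squares lie to the right of 0 in all rows, and 4 circles lie to the left of it.

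Breadth, the bp under peaks over a gene and 1 kb on each side, was above 0 in all 4 libraries for 15 Hox genes, against 53% of all protein-coding genes, and 13 Hox genes (34.2%) had no peak in any library, against 21.3%. By limma over 11645 genes, 0 of the 15 were called broader or narrower in HP at an adjusted p of 0.05, as were 0% of all genes. At an unadjusted p under 0.05, 2 were broader and 0 narrower, against 12.5% and 0.713% of all genes. The median log2 ratio was 0.93, against 0.66 for all genes, and both HP libraries exceeded both LP libraries at 6 of 15, against 49.6%.

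Hoxb13 had the highest ratio. Peaks covered 210 and 431 bp of it in LP, against 1050 and 1222 bp in HP, a log2 ratio of 1.91 ± 0.58 (SE, limma adjusted p = 0.370), although its pileup overlapped between the populations. Hoxb6 had 702 and 1569 bp (LP) and 2846 and 2972 bp (HP) under peaks (log2 ratio 1.47, limma adjusted p = 0.370). Hoxa10 had 321 and 2616 bp (LP) and 2144 and 3563 bp (HP), so the LP replicates differed by more than the populations did. LP replicate 2 bore on these counts, since without it 7 of the 15 were called broader (Hoxa10, Hoxb3, Hoxb6, Hoxb13, Hoxd3, Hoxd4 and Hoxd13), with 2280 of all genes. LP was then replicate 1 alone, the library with the shortest peaks, taken to vary like the HP pair.

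Most Hox regions were found in a single library. Of the 93 regions, 59 were called in 1 library (63.4%, against 81.7% of all regions), 9 in 2 (genome 7.91%), 11 in 3 (genome 3.79%) and 14 in all 4 (15.1%, against 6.6%). All 11 regions called in 3 libraries were missing in LP replicate 1, against 77.5% of all such regions; over all such regions 18% lacked LP replicate 2, 3.43% HP replicate 1 and 1.05% HP replicate 2. They included regions at the internal Hoxa3 and Hoxa10 starts, upstream of Hoxa11 and Hoxb9, downstream of Hoxd13 and at a second Hoxd4 start. Of the 59 single-library regions, 30 belonged to LP replicate 2, 16 to HP replicate 2, 7 to HP replicate 1 and 6 to LP replicate 1. The summits of those of LP replicate 2 held a median of 13.5 fragments, and those of LP replicate 1 a median of 7.

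Of the 93 Hox regions, 2 were called in both HP libraries and neither LP library, against 3.94% of all regions. The first lay upstream of Hoxb9, near Gm53 (chr11:96257639-96258364), with pileups of 1.04 and 1.19 from 12 and 17 fragments. The second lay 1759 bp upstream of Hoxd10 (chr2:74689947-74690404), with 1.48 and 3.58 from 17 and 51 fragments. No Hox region was called in both LP libraries and neither HP library, against 0.249%. Of the 28 Hox peaks of LP replicate 1, 60.7% overlapped a peak of LP replicate 2, against 23.9% of all its peaks, and of the 46 of HP replicate 1, 76.1% overlapped one of HP replicate 2, against 48.3%. Of the 66 Hox peaks of LP replicate 2, 21.2% overlapped one of LP replicate 1, against 20.1%, and of the 49 of HP replicate 2, 55.1% overlapped one of HP replicate 1, against 37.8%.

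The base composition of the promoters was read over 1 kb on either side of each start, and marked and unmarked Hox genes had similar medians. The ratio of observed to expected CpG had a median of 0.578 at the 12 Hox genes called in all 4 libraries and 0.572 at the 18 called in none, against 0.660 and 0.198 for all protein-coding genes. The median share of G and C was 54.5% and 56.8% for the same Hox groups, against 54.6% and 45.7%. Of 15 Hox promoters with an observed to expected ratio of at least 0.6 and at least 55% G and C, limits chosen after the values were seen, 4 were called in all 4 libraries (26.7%) and 46.7% in none. Of 4447 promoters of all genes within the same limits, 77.9% were called in all 4 and 10.8% in none. The 4 marked ones were Hoxa11, Hoxb7, Hoxb9 and Hoxd13, and the unmarked ones were Hoxa13, Hoxb4, Hoxc9, Hoxc13, Hoxd1, Hoxd8 and Hoxd9. These shares are descriptions of 38 genes that share clusters and peaks, and no test was made of them.

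Short motifs were searched on both strands in the 300 bp around the strongest summit. The core of the CTCF motif, the site of a protein that divides Hox clusters into domains (CCANNAGGG), was found in 3 of 14 Hox regions (21.4%), against 6.36% of all regions called in all 4 libraries. The MEIS motif (TGACAG) was found in 1 of 14 (7.14%), against 14.2%. The PBX-HOX motif (TGATNNAT) and the motifs of MITF, the melanocyte regulator (TCACGTG and TCATGTG), were found in 0 of 14, against 2.25%, 2.47% and 1.74%. These counts cover the summit window alone. Elsewhere in these regions, TCATGTG occurred shortly before the starts of Hoxa3, Hoxb6 and Hoxd3, and PBX-HOX before that of Hoxb9. Both also occurred before the start of Hoxa2, which had no promoter peak. No share over all genes was taken for the stretches before starts.

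The genes that work with Hox proteins were mostly marked, beside the 41.7% of all protein-coding genes with a promoter peak in all 4 libraries. Of the 9 TALE cofactors, the homeodomain partners with which Hox proteins bind DNA, 8 had a promoter peak in all 4 libraries, and Meis1 had one in 3. Pbx3 had the highest pileup, 15.7 and 9.84 (LP) and 14.6 and 15.3 (HP), followed by Pknox1, with 11.4 and 7.29 (LP) and 12.6 and 14.8 (HP). At Pbx3 the populations overlapped, and at Pknox1 they did not. Of 23 Polycomb genes, which silence Hox clusters, 22 were marked in all 4 libraries, with Cbx7 in none. Ezh2, the methyltransferase that writes H3K27me3, had 20.7 and 15.4 (LP) and 20.2 and 29.3 (HP). Of 13 genes of the opposing Trithorax group and H3K27 demethylases, 10 were marked in all 4, and Kdm6b, a demethylase of H3K27, was called in both HP libraries and neither LP library, as were 1.55% of all genes. The cohesin and CTCF genes that set boundaries in the clusters were marked in 7 of 8 cases, without Stag1.

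The genes upstream of Hox expression in the embryo and the related homeobox families were partly covered. Of 12 retinoic acid receptors and enzymes, which set the anterior Hox genes in the embryo, 3 were marked in all 4 libraries (Rxrb, Rxra and Rarg) and 5 in none, beside 41.7% and 41.1% of all protein-coding genes. None of the 6 ParaHox and Cdx genes, sisters and regulators of the Hox genes, was marked in all 4, and Cdx1 and Pdx1 had a peak in 1 library each. Of the 6 Dlx genes, which pattern the face and limbs from other loci, Dlx2 and Dlx6 were marked in all 4. No gene of any of these lists was called broader or narrower in HP by limma, and neither was any of the 11645 genes tested. Over the members marked in all 4 libraries, the median log2 ratio of promoter pileup was 1.42 for the TALE, 0.77 for the Polycomb, 0.95 for the Trithorax and demethylase, 0.79 for the boundary, 1.45 for the retinoic acid and 1.12 for the Dlx genes. The retinoic acid and Dlx medians rest on 3 and 2 genes. The median of all regions called in all 4 libraries was 0.92, but those regions include places away from gene starts.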

How the data were processed

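H3K27ac ChIP-seq was available from 2 LP and 2 HP libraries, and the IgG libraries entered only as controls of the peak calls. Per the labels and the file headers, the authors converted reads with bcl2fastq 2.20, trimmed them with Trimmomatic 0.33, aligned them with Bowtie2 2.5.1 to mm10 and called narrow peaks in each library, against the IgG of the same replicate number, with MACS 3.0.0b1 at a q of 0.05, keeping duplicates. The deposited lists give the pileup (coverage in fragments at the summit), the fold enrichment over control as a ratio, and −log10 p and q values. No reads were used here, so positions without a called peak have no value.

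Pileup was divided by the fragments of the library, in units of 1000000. Lists were merged where peaks shared 1 bp, and regions took the highest summit of each library. Promoters were the 1 kb on either side of a GENCODE start. HP and LP were compared by limma 3.58.1 (R 4.3.3) on log2 values, over regions or genes covered in all 4 libraries, without a block and with Benjamini-Hochberg adjustment, and the scripts were tested on simulated data. Tables, figures and sequences were made with pandas 2.3.3, matplotlib 3.10.9 and samtools 1.23.1 under Python 3.11.15. The labels state equal amounts of DNA within each replicate set, and the deviations of equally numbered libraries from their group means had a correlation of 0.0153 over regions; the fit with the replicate as a block was an alternative. The Hox genes, the gene lists and the tests were chosen with earlier results of these data known. One item is not reported here and was left out of the members, the clusters and their counts, but not of the fits over all regions and genes. By the naming rule every Hox gene was accounted for, those with a promoter peak in all 4 libraries in full, with other genes of the clusters named where their start had a peak in all 4 and up to 4 genes per list with values, those of highest mean promoter pileup. Meis1, Cbx7, Kdm6b, Stag1, Cdx1, Pdx1, Col1a1, Hotair and Evx2 fall outside it and were chosen after their values were seen. Other alternatives were the q limit, lists of equal size, window sizes, other scalings and leaving out each library; leaving out libraries for promoters and clusters, and the CpG limits, were added after seeing the data.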

Additional observations from a re-analysis of the deposited data

How the results depend on the processing

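No Hox region and no Hox gene was called under the stricter q limits, equal list sizes, other scalings or windows that were run, or with the replicate block (0 regions and 0 genes; lowest adjusted p 0.0919 and 0.0850 by limma). Leaving out each library gave 0 to 9 Hox regions higher in HP (9 without HP replicate 1). It gave 0 to 7 broader Hox genes (7 without LP replicate 2). Each of these fits left 1 library in a group. Leaving out a whole replicate left 1 HP and 1 LP library. The promoter rule was then a peak in that HP library and none in that LP library. Without replicate 1 it was met by 1 of 38 Hox genes (Hoxb3), against 4.45% of all protein-coding genes. Without replicate 2 it was met by 1 of 38 (Hoxa4), against 7.18%. Among all regions the calls went from 485 to 33 at a q of 0.001, 9 after division by fragment length, 88 with the block and 0 with mean summits, centring or quantile normalization. At a CpG ratio of at least 0.75, 2 of 6 CpG-rich Hox promoters were called in all 4 libraries (33.3%, against 86% of all such promoters), beside 4 of 15 at 0.6.

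Ratios turned with the scaling. After centring, the log2 pileup ratio was -0.21 in the Hoxa3 intron, -0.39 at Hoxb13, -0.95 at the Gm53 start, -0.19 at Hoxb8, -0.31 at Hoxb3, -0.11 at Hoxc6 and -0.80 at Hoxd13. After quantile normalization it was -0.14 in the Hoxa3 intron, -0.37 at Hoxb13, -0.96 at the Gm53 start, -0.18 at Hoxb8, -0.37 at Hoxb3, -0.036 at Hoxc6 and -0.83 at Hoxd13. For breadth, centring gave -0.039 at Hoxa3, -0.12 at Hoxa7, -0.070 at Hoxb9, -0.17 at Hoxb3 and -0.062 at Hoxc5, and quantile normalization -0.25, -0.13, -0.084, -0.27 and -0.063 in the same order. Without the flanks, breadth gave -1.33 at Hoxd13 and -0.014 at Hoxa7. Leaving out each library moved pileup from -0.44 to 0.57 at the Gm53 start and from -0.29 to 0.72 at Hoxd13, and breadth from -0.30 to 1.43 at Hoxa3, -0.081 to 1.05 at Hoxa7, -0.91 to 1.76 at Hoxb3 and -0.089 to 2.42 at Hoxd3. The cause of these moves was not tested. Weak peaks of 5 to 28 fragments, as in the single-library regions, set the limit of depth.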
